A study of Rattus norvegicus with 8 samples.

Results

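Ang II and endothelin act on vascular smooth muscle through a small set of receptors, and this account follows 6 of the genes concerned, Agtr1a, Agtr2, Agtrap, Atp6ap2, Edn1 and Ednra. Members were all probe sets that the array's annotation gives to 1 of these symbols alone. This rule found 9 probe sets of 5 genes among the 31099 on the array, 2 each for Agtr1a, Agtr2, Agtrap and Atp6ap2 and 1 for Edn1. Ednra, the endothelin A receptor gene, had no probe set under that symbol and was not analysed here. Of the 9, 8 had a mean over all arrays at or above the 30th percentile (4.81 log2) and were tested, while the dimmer Agtr2 probe set lay below it.

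The cells were vascular smooth muscle cells digested out of thoracic aortas of Sprague-Dawley males, grown with 10% serum for 2 passages; the labels give no age. For 48 h they carried an siRNA, either non-targeting (siNTC) or against Giver (siGiver), a long non-coding RNA of these cells, and they then had 3 h of phosphate-buffered saline (PBS) or 100 nM Ang II. Each of the 4 combinations has 2 Affymetrix arrays, and no label tells if separate cultures were used: the p-values cover array-to-array spread only, which may be technical. Levels are log2 values per probe set, comparable between arrays and not between probe sets. Giver is annotated to no probe set, and its knockdown was not analysed here, and the labels name a Giver siRNA without giving its sequence.

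Ang II is cut from angiotensinogen by renin and peptidases, and in smooth muscle it acts mainly through the AT1 receptor, which couples to Gq proteins, raises calcium and drives contraction and growth. Agtr1a encodes the main rodent form of that receptor, Agtr2 the AT2 receptor, which often opposes it, and Agtrap a membrane protein that binds the AT1 receptor's tail and favours its internalisation. Atp6ap2 encodes the (pro)renin receptor, also an accessory subunit of the vacuolar proton pump. Edn1 encodes the precursor of endothelin-1, a strong vasoconstrictor peptide made mainly by endothelium and also by smooth muscle, which acts through Gq-coupled receptors of its own. Ang II is known to lower AT1 receptor messenger RNA in cultured smooth muscle cells.

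Arrays of a group correlated at 0.998, and medians of all 8 lay between 6.15 and 6.19 log2. All 9 smooth muscle markers had levels above the filter value, and their mean log2 level lay between 10.31 and 10.35 in siNTC PBS, 10.27 and 10.28 in siNTC Ang II, 10.55 and 10.57 in siGiver PBS, and 10.63 and 10.65 in siGiver Ang II arrays. All 6 fibroblast markers were above it too, with means between 7.46 and 7.50, 7.19 and 7.24, 7.55 and 7.58, and 7.40 and 7.46 in the same order. Of 7 macrophage and leukocyte markers 3 were above it, with Ptprc, Csf1r, Adgre1 and Cd163 below, and their means lay between 4.53 and 4.62, 4.62 and 4.68, 4.57 and 4.64, and 4.41 and 4.55. Of 9 measured endothelial markers 7 were below the filter, among them Pecam1, Vwf, Tek and Nos3. A 5S ribosomal RNA control probe set read 8.15 and 8.24 in siNTC PBS arrays and 8.88 and 8.93 in siNTC Ang II arrays. In siGiver arrays it read between 7.62 and 7.77. The GAPDH control probe sets were also apart by siRNA, between 12.39 and 12.71 in siNTC arrays and between 13.11 and 13.21 in siGiver arrays. At the beta-actin and hexokinase control probe sets the siRNA arms overlapped. The part of these controls in the results was not tested. In bulk RNA, fewer cells of a type and less RNA per cell cannot be told apart.

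Across the receptor system, Agtr1a fell with Ang II in both siRNA arms and was higher in siGiver than in siNTC cells, Agtrap was lower in siGiver cells, and Edn1 rose with Ang II in siGiver cells, an effect that differed between the arms. With Ang II in siNTC cells, 2 of the 8 tested probe sets passed, both lower, against 3.92% of all 21729 tested probe sets (2.32% higher and 1.60% lower). Both were probe sets of Agtr1a. With Ang II in siGiver cells 4 passed, 1 higher and 3 lower, against 12.7% of all (7.98% higher and 4.74% lower). Between the siRNAs, 5 passed in PBS (3 higher and 2 lower in siGiver cells), against 27.8% of all (12.3% and 15.5%), and 6 passed with Ang II (3 higher and 3 lower), against 35.7% (17.1% and 18.6%). Those in PBS belonged to Agtr1a, Agtrap and Edn1, and those with Ang II to the same genes and Agtr2. The difference between the 2 Ang II effects, the interaction, passed for 1 probe set, higher, against 3.36% (2.03% higher and 1.33% lower). Members were called at an adjusted p under 0.05 from limma, a linear model fitted to all tested probe sets, and the median member difference was 0.076, -0.081, 0.15, 0.094 and -0.054 log2 in these comparisons, against -0.0016, -0.018, -0.0029, -0.014 and -0.0060 over all.

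**Figure D1:**
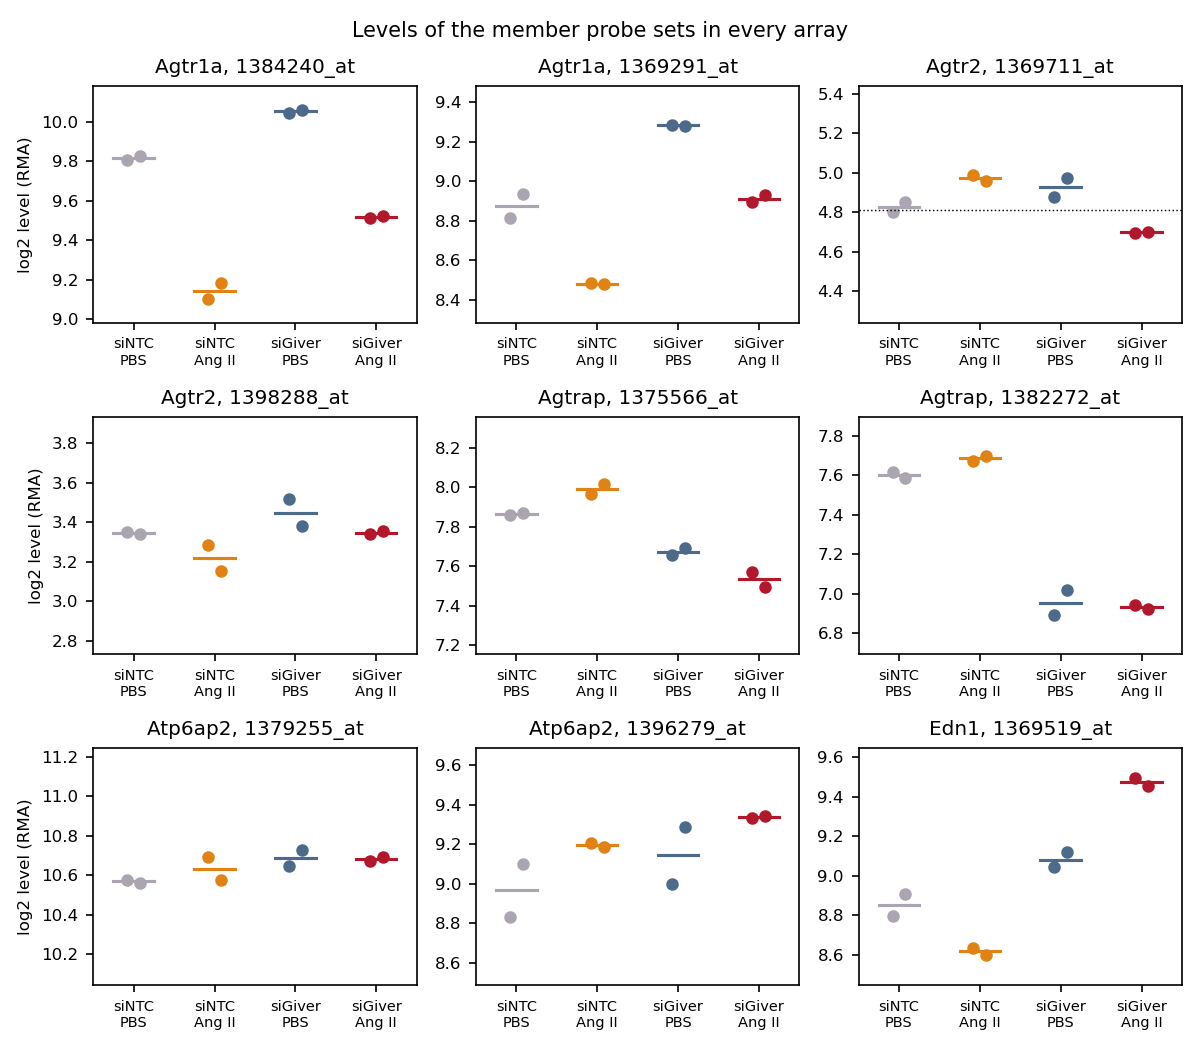
Level of each of the 9 member probe sets (y axis, log2, a span of 1.2 in every panel) in each array, by group (x axis), with points for arrays and bars for the mean of 2; the dotted line is the filter value of 4.81. Both Agtr1a panels show lower points with Ang II in each arm, and the Edn1 panel shows its highest points, 9.45 and 9.49, in siGiver cells with Ang II.

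Agtr1a, the AT1a receptor gene (chr17:34383397-34435523 in the RefSeq annotation of GRCr8), was the member that changed most with Ang II. Its brighter probe set read 9.81 and 9.83 log2 in siNTC PBS arrays and 9.10 and 9.18 in siNTC Ang II arrays, and 10.04 and 10.06 in siGiver PBS against 9.51 and 9.52 in siGiver Ang II arrays. No groups overlapped, and the order ran from siNTC Ang II, the lowest, through siGiver Ang II and siNTC PBS to siGiver PBS. The fall with Ang II was 0.67 ± 0.051 on the log2 scale in siNTC cells (limma standard error, SE, 2 arrays per group; 1.60-fold, adjusted p = 0.000873). In siGiver cells the same probe set fell by 0.53 ± 0.051 (1.45-fold, limma adjusted p = 0.000866). Of the 6 fibroblast markers, Pdgfra also fell with Ang II in both arms (-0.38 and -0.48). Dcn and Scara5 fell in siNTC cells (-0.42 and -0.39). Of the 9 smooth muscle markers, Myh11 was lower with Ang II in siNTC cells (-0.29), and Cnn1 and Smtn were higher in siGiver cells (0.22 and 0.36). Over all tested probe sets 3.92% were called with Ang II in siNTC cells and 12.7% in siGiver cells. The part of these markers in the Ang II differences of the members was not tested.

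The dimmer Agtr1a probe set read 8.81 and 8.94 in siNTC PBS, 8.48 and 8.48 in siNTC Ang II, 9.29 and 9.28 in siGiver PBS, and 8.90 and 8.93 in siGiver Ang II arrays. Here siGiver cells with Ang II overlapped siNTC cells without it, and the other neighbours in the order were apart. It fell with Ang II by 0.39 ± 0.057 in siNTC cells (limma adjusted p = 0.0133) and by 0.37 ± 0.057 in siGiver cells (0.00689). The siNTC call was lost without siNTC PBS replicate 2 or either siNTC Ang II array, at -0.39 to -0.33 (adjusted p 0.0564 to 0.0978), and when only the 4 arrays compared were fitted (0.0501). Both probe sets carried the same direction, and the brighter one had the larger fall in each arm.

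Between the siRNAs, Agtr1a was higher in siGiver cells at both probe sets and under both treatments. Of the 9 smooth muscle markers, 5 were also higher and 1 lower in PBS, against 27.8% of all probe sets called. With Ang II 6 were higher and 1 lower, against 35.7%. Myh11 stood at 0.59 and 0.83, Cnn1 at 0.54 and 0.76, and Des at -0.39 and -0.42. Of the 6 fibroblast markers, 0 passed in PBS and 3 were higher with Ang II. Of the 3 macrophage and leukocyte markers above the filter, 0 passed in PBS and 2 were lower with Ang II. The part of all these markers in the siGiver differences of the members was not tested. In PBS the brighter Agtr1a probe set was higher by 0.24 ± 0.051 (limma adjusted p = 0.0124) and the dimmer by 0.41 ± 0.057 (0.00201). With Ang II they were higher by 0.38 ± 0.051 (0.00123) and 0.43 ± 0.057 (0.00110), or 1.30- and 1.35-fold. The PBS call of the brighter was lost without siNTC PBS replicate 1, siGiver PBS replicate 1 or siGiver PBS replicate 2, at 0.22 to 0.24 (adjusted p 0.0528 to 0.0587). The difference in this fall between the arms did not pass: the interaction was 0.14 (95% confidence interval -0.027 to 0.31, limma adjusted p = 0.341) for the brighter and 0.021 (-0.17 to 0.21, 0.915) for the dimmer. These intervals include no difference. They also include a larger fall in siGiver cells (to -0.17 log2 at the dimmer probe set) and a smaller fall (to 0.31 log2 at the brighter).

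Agtr1b encodes the second rodent AT1 receptor, whose coding sequence is close to that of Agtr1a, so signal at the Agtr1a probe sets could in part come from it. Its only probe set lay between 3.29 and 3.64 log2 in all 8 arrays, below the filter, and was not tested.

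Agtr2, the AT2 receptor gene (chrX:116914320-116918504), was near the filter value. Its brighter probe set read 4.80 and 4.85 log2 in siNTC PBS, 4.99 and 4.96 in siNTC Ang II, 4.88 and 4.98 in siGiver PBS, and 4.69 and 4.70 in siGiver Ang II arrays. The siGiver Ang II arrays were the lowest, and siGiver PBS and siNTC Ang II overlapped. With Ang II the level fell by 0.23 ± 0.055 in siGiver cells (limma adjusted p = 0.0364), a call lost in 14 of 15 alternatives, including each of the 8 fits that left out 1 array (-0.28 to -0.18, adjusted p 0.0515 to 0.146). In siNTC cells the difference was 0.14 (95% interval 0.015 to 0.27, limma adjusted p = 0.195).

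With Ang II present, Agtr2 was lower in siGiver than in siNTC cells by -0.27 ± 0.055 (limma adjusted p = 0.00714), a call lost with trended, robust moderation (0.0722). In PBS the difference was 0.098 (95% interval -0.030 to 0.23, adjusted p = 0.232). Its interaction stood at -0.37 ± 0.077 with a limma adjusted p of 0.0503, and passed at 0.0244 when 1 probe set per gene was tested. The other Agtr2 probe set, below the filter, read 3.35 and 3.34 in siNTC PBS, 3.29 and 3.15 in siNTC Ang II, 3.52 and 3.38 in siGiver PBS, and 3.34 and 3.35 in siGiver Ang II arrays. Its siNTC Ang II arrays were the lowest of the 8, the opposite of the brighter probe set, where they and siGiver PBS were highest.

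Agtrap, the gene of the AT1 receptor-associated protein (chr5:163790565-163802174), was lower in siGiver cells. Its dimmer probe set read 7.62 and 7.59 log2 in siNTC PBS, 7.67 and 7.70 in siNTC Ang II, 6.89 and 7.02 in siGiver PBS, and 6.94 and 6.93 in siGiver Ang II arrays. All 4 siGiver arrays were below all 4 siNTC arrays, and the siGiver groups overlapped. It was lower by -0.64 ± 0.058 in PBS (1.56-fold, limma adjusted p = 0.000373) and by -0.75 ± 0.058 with Ang II (1.68-fold, 0.000124).

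The brighter Agtrap probe set read 7.86 and 7.87 in siNTC PBS, 7.96 and 8.02 in siNTC Ang II, 7.66 and 7.69 in siGiver PBS, and 7.57 and 7.50 in siGiver Ang II arrays. Its 4 groups did not overlap, and the siRNA arms were again apart. The siGiver difference was -0.46 ± 0.053 with Ang II (limma adjusted p = 0.000610) and -0.19 ± 0.053 in PBS (0.0329). This PBS call was lost without any 1 of the 4 PBS arrays (-0.21 to -0.17, adjusted p 0.0790 to 0.142), without the filter and when only the 4 arrays compared were fitted. The mean of the 2 probe sets gave -0.42 in PBS, a call. The Agtrap probe sets shared a direction and differed in size, most in PBS.

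Ang II gave no call at either Agtrap probe set in limma. The brighter stood at 0.13 (95% interval 0.0029 to 0.25, adjusted p = 0.229) in siNTC cells and -0.14 (-0.26 to -0.017, 0.128) in siGiver cells, and the dimmer at 0.087 (-0.049 to 0.22, 0.443) and -0.021 (-0.16 to 0.11, 0.839). Their interactions were -0.27 (-0.44 to -0.092, 0.111) and -0.11 (-0.30 to 0.084, 0.528).

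Atp6ap2, the (pro)renin receptor gene (chrX:12856708-12883670), passed in none of the 5 limma comparisons at either probe set, with 0 of 2 also at an unadjusted p under 0.05. Its brighter probe set read 10.58 and 10.56 log2 in siNTC PBS, 10.69 and 10.57 in siNTC Ang II, 10.65 and 10.73 in siGiver PBS, and 10.67 and 10.69 in siGiver Ang II arrays. Each group overlapped its neighbour in the order of means. Its 95% intervals were -0.074 to 0.20 and -0.14 to 0.13 for Ang II in siNTC and siGiver cells, and -0.021 to 0.26 and -0.091 to 0.19 for the siRNA in PBS and with Ang II. With trended, robust moderation the siRNA difference in PBS passed (0.12, adjusted p = 0.0494).

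The dimmer Atp6ap2 probe set read 8.83 and 9.10 in siNTC PBS, 9.20 and 9.19 in siNTC Ang II, 9.00 and 9.29 in siGiver PBS, and 9.33 and 9.34 in siGiver Ang II arrays. The arrays of each PBS group lay farther apart than those of the Ang II groups, siGiver PBS overlapped siNTC Ang II, and its SE of 0.11 was the largest of the members. Its differences ranged from 0.14 to 0.23 in the 4 simple comparisons, and none passed (limma adjusted p 0.285 to 0.379).

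Edn1, the endothelin-1 gene (chr17:22660799-22666687), was the member whose response to Ang II differed between the arms. Its 1 probe set read 8.79 and 8.91 log2 in siNTC PBS, 8.64 and 8.60 in siNTC Ang II, 9.04 and 9.12 in siGiver PBS, and 9.49 and 9.45 in siGiver Ang II arrays. The 4 groups did not overlap, and siNTC cells with Ang II were lowest and siGiver cells with Ang II highest. In siGiver cells Edn1 rose with Ang II by 0.39 ± 0.059 (1.31-fold, limma adjusted p = 0.00676), a call lost without siGiver PBS replicate 1 (0.35, adjusted p = 0.0514).

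The RefSeq promoter window of Edn1 is given because this member's response to Ang II differed between the arms. It holds the 250 bases before the annotated gene start on build GRCr8, chr17:22666688-22666937, 5′ to 3′ on the minus strand. Capitals mark matches to the 5 motifs searched on both strands, the AP-1 site TGAGTCA, the cyclic AMP response element TGACGTCA, the Nr4a receptor element AAAGGTCA, the hypoxia element core ACGTG and the TATA box TATAAA.
Edn1: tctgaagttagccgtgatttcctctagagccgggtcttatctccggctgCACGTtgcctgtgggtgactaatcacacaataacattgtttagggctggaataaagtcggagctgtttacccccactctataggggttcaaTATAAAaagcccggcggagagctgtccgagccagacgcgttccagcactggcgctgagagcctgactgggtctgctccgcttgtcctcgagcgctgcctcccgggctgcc

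TATAAA began 110 bases before the annotated start of Edn1, and 12.9% of the 33469 RefSeq windows of this length hold it. The window also held CACGT, the hypoxia core on the opposite strand, 201 bases before the start, and 16.6% of windows hold this motif. It did not hold the exact AP-1, cyclic AMP or Nr4a letters, which occur in 4.05%, 1.59% and 1.24% of windows. Variants of these sites were not searched. The window holds tgactaa, which is close to TGACTCA, the AP-1 letters on the opposite strand. This near match was not part of the search, and the share of windows that hold such near matches was not counted. Such matches are letters in a window and not measured binding.

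In siNTC cells the Edn1 difference was -0.23 ± 0.059 (95% interval -0.37 to -0.094) and did not pass (limma adjusted p = 0.0811). It passed with the filter at the 50th percentile (0.0373), with cyclic loess (0.0483) and with trended, robust moderation (0.00881). The interaction was 0.62 ± 0.084 (95% interval 0.43 to 0.82, limma adjusted p = 0.0127), with both siGiver Ang II arrays above, and both siNTC Ang II arrays below, the PBS arrays of their arm. That call was lost without siNTC Ang II replicate 2 (0.61, adjusted p = 0.0592) and without siGiver PBS replicate 1 (0.59, 0.0539).

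Edn1 was higher in siGiver than in siNTC cells under both treatments, by 0.23 ± 0.059 in PBS (limma adjusted p = 0.0254) and by 0.86 ± 0.059 with Ang II (1.81-fold, 8.90e-05). The PBS call was lost without siNTC PBS replicate 1 (0.17), siGiver PBS replicate 1 (0.27) or siGiver PBS replicate 2 (0.19), without the filter and when only the 4 arrays compared were fitted. The call with Ang II held in all 17 alternatives, from 0.84 to 0.88. Since endothelium is the main known source of endothelin-1, the endothelial markers are given beside it: the mean log2 level of the 9 measured lay between 4.51 and 4.54 in siNTC PBS, 4.49 and 4.56 in siNTC Ang II, 4.56 and 4.60 in siGiver PBS, and 4.54 and 4.60 in siGiver Ang II arrays. Of the 2 above the filter, Esam was higher in siGiver cells by 0.49 in PBS and 0.50 with Ang II, and Egfl7 stood at 0.047 and 0.022 and did not pass.

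**Figure D2:**
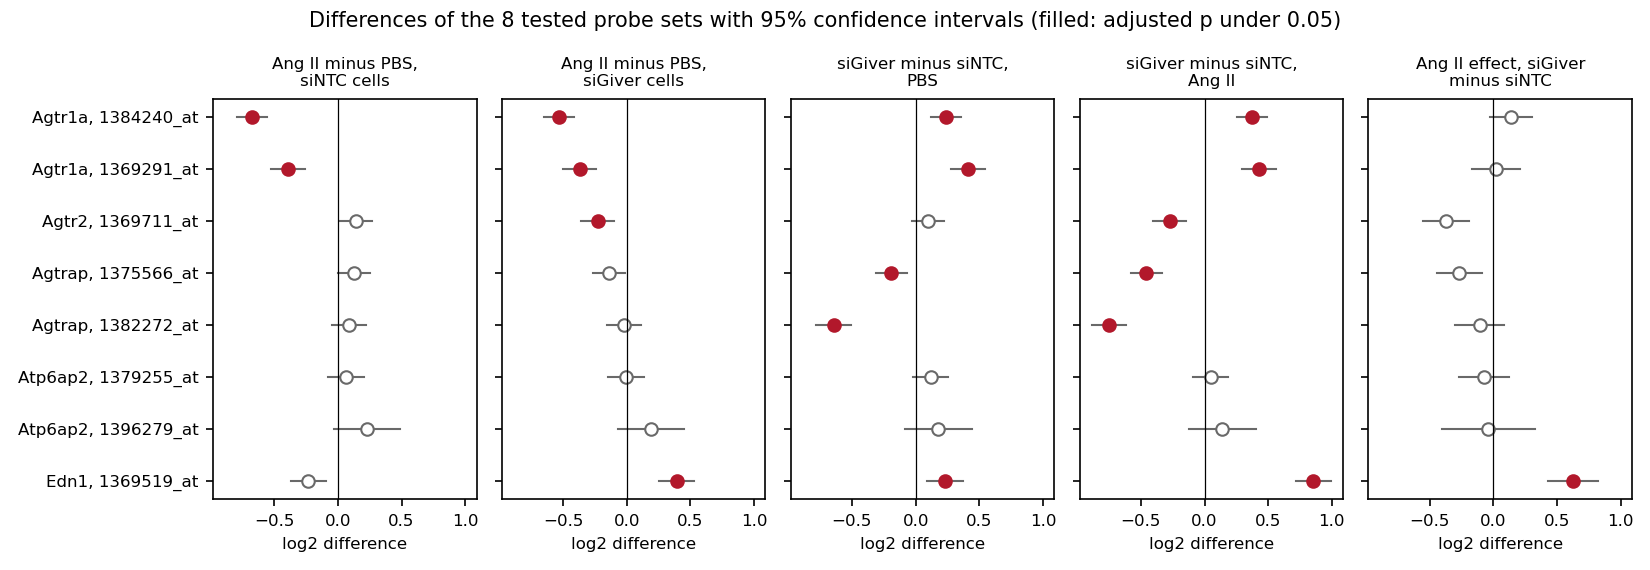
Log2 difference (x axis) of each of the 8 tested probe sets (y axis) in the 5 comparisons, with bars for 95% confidence intervals and filled points for a limma adjusted p under 0.05. Agtr1a is filled on the negative side for Ang II in both arms, Agtrap on the negative side for siGiver under both treatments, and Edn1 is the filled point in the interaction panel, at 0.62.

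Arrays of the groups compared did not overlap at 7, 6, 7 and 7 of the 8 tested probe sets for Ang II in siNTC cells, Ang II in siGiver cells, and the siRNA in PBS and with Ang II. The same held for 52.1%, 59.4%, 63.8% and 68.1% of all tested probe sets, since 2 arrays a group often separate. The Ang II comparisons in the 2 arms share no arrays, whereas Ang II in siNTC cells and the siRNA in PBS share the siNTC PBS arrays. For Agtr1a these values were -0.67 and 0.24 at the brighter probe set, and for Edn1 -0.23 and 0.23.

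**Figure D3:**
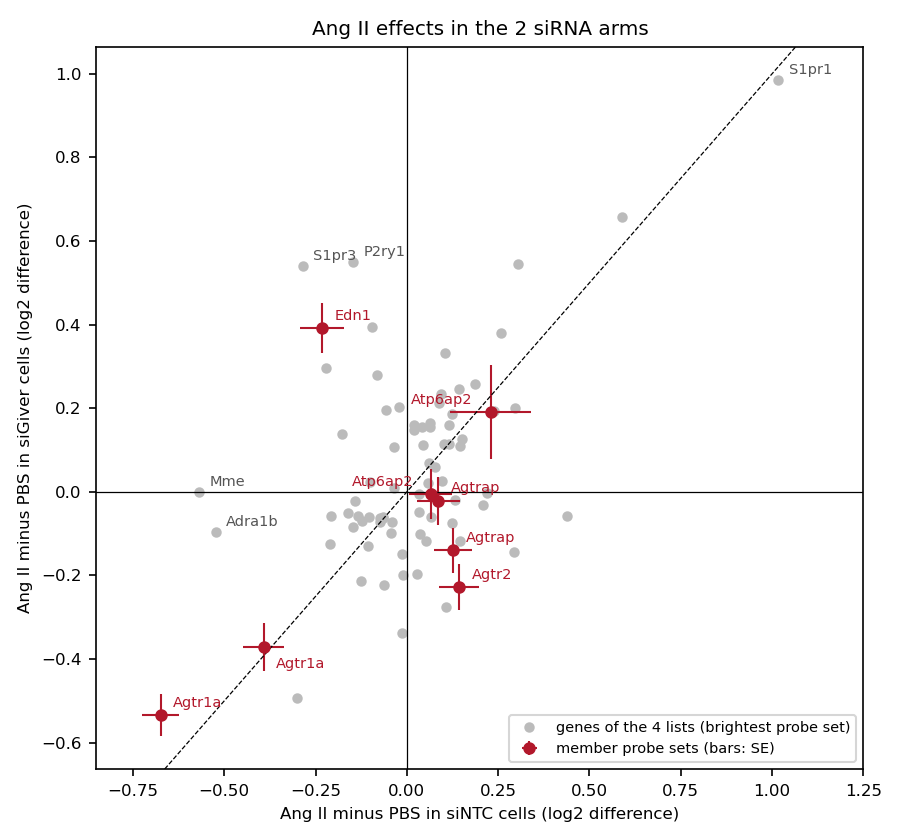
Ang II effect in siNTC cells (x axis, log2 difference) against that in siGiver cells (y axis) for the 8 tested member probe sets (red, bars for SE) and for tested genes of 4 pathway lists (grey), with a dashed line of equal effects. Both Agtr1a points lie at negative values on both axes, and Edn1 lies at -0.23 and 0.39.

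Among the other genes of the renin-angiotensin system, of 20 enzymes and receptors in the list 16 had a probe set and 12 were tested, while Ace, Agtr1b, Mas1 and Cma1 were below the filter. With Ang II, limma called Mme in siNTC cells and 0 genes in siGiver cells (1 and 2 at an unadjusted p under 0.05), against 3.92% and 12.7% of all probe sets. Mme, the gene of neprilysin, which degrades angiotensins and endothelins, fell in siNTC cells by 0.57 ± 0.11 on the log2 scale and stood at -0.0007 ± 0.11 in siGiver cells, with an interaction of 0.57 ± 0.16 that did not pass. That fall was lost in 7 of 8 fits without 1 array, all but the fit without siNTC Ang II replicate 2 (-0.65 to -0.40). Mme was lower in siGiver cells in PBS (-0.38), lost without any 1 of the 4 PBS arrays or either siGiver Ang II array (-0.46 to -0.29).

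Between the siRNAs, 1 of the 12 was higher and 2 lower in PBS, and 2 higher and 1 lower with Ang II (list medians 0.068 and 0.13 log2), against 27.8% and 35.7% of all probe sets called. Prcp, whose product cleaves Ang II to a shorter peptide, was higher in PBS by 0.24 ± 0.055, lost without any 1 of the PBS arrays (0.24 to 0.25). With Ang II the same Prcp probe set stood at 0.16 and did not pass. The dimmer Prcp probe set was called higher under both treatments, by 0.40 in PBS and 0.39 with Ang II. Thop1, a peptidase that acts on angiotensin I, was higher with Ang II by 0.48 ± 0.11, lost without siNTC Ang II replicate 2 or siGiver Ang II replicate 2 (0.32 to 0.39). Enpep, the aminopeptidase that turns Ang II into Ang III, was higher with Ang II by 0.20 ± 0.052, lost without either siNTC Ang II array or siGiver Ang II replicate 1 (0.16 to 0.22), and its dimmer probe set stood at -0.11, with 0.041 and no call for the mean of both. In PBS the dimmer Enpep probe set was called lower in siGiver cells by -0.24 (limma adjusted p = 0.0272), where the brighter stood at 0.071 and did not pass. Ctsb, a lysosomal protease, was lower by -0.32 ± 0.052 with Ang II and by -0.19 ± 0.052 in PBS, the latter lost without any 1 of the PBS arrays (-0.22 to -0.16).

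On the endothelin side, the converting enzyme genes Ece1 and Ece2 were lower in siGiver cells. The list held 9 genes, of which 7 had a probe set and 6 were tested, with 1 higher and 2 lower in siGiver cells in PBS and 0 higher and 2 lower with Ang II, against 27.8% and 35.7% of all probe sets called. Ece1, the main endothelin converting enzyme, read 8.96 and 8.99 in siNTC PBS, 8.95 and 9.04 in siNTC Ang II, 8.43 and 8.51 in siGiver PBS, and 8.59 and 8.65 in siGiver Ang II arrays. It was lower by -0.50 ± 0.058 in PBS and -0.38 ± 0.058 with Ang II, and its siGiver arrays all lay below its siNTC arrays. Its relative Ece2 was lower by -0.32 ± 0.079 and -0.35 ± 0.079. Both Ece2 calls were lost without some arrays, in PBS without siNTC PBS replicate 1 or 2 or siGiver PBS replicate 1 (-0.35 to -0.27), and with Ang II without siNTC Ang II replicate 2 or siGiver Ang II replicate 1 (-0.31 to -0.25).

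Edn2, the endothelin-2 gene, was higher in siGiver cells in PBS by 0.40 ± 0.070, at levels between 4.77 and 5.27, near the filter. With Ang II present the Edn2 difference was -0.038 ± 0.070 and did not pass. Furin, a protease that cuts the endothelin precursor, rose with Ang II in siGiver cells by 0.23 ± 0.056, lost in 6 of 8 fits without 1 array, all but those without a siNTC PBS array (0.20 to 0.27). In siNTC cells limma called 0 of the 6 with Ang II (1 at an unadjusted p under 0.05), against 3.92% of all probe sets. List medians for the siRNA were -0.044 in PBS and -0.059 with Ang II.

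Genes that carry the signal from both receptor types showed calls between the siRNAs in each direction, at shares no higher than those of all probe sets. Of 28 genes for Gq coupling, arrestins and receptor kinases, 26 were tested. With Ang II limma called 0 in siNTC cells and 1 in siGiver cells (5 and 8 at an unadjusted p under 0.05), against 3.92% and 12.7% of all probe sets. That gene, Grk6, was named after its value was seen and rose by 0.25 ± 0.054. In siGiver cells 3 were higher and 4 lower in PBS, against 27.8% of all probe sets called, and 3 higher and 2 lower with Ang II, against 35.7%. Gna11 and Gnaq, the Gq-class alpha subunits that both receptors use, were higher by 0.76 ± 0.065 and 0.42 ± 0.10 in PBS and by 0.72 ± 0.065 and 0.64 ± 0.10 with Ang II. The Gnaq call in PBS was lost without either siGiver PBS array (0.41 to 0.43), and without siNTC PBS replicate 1 its value was 0.24.

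Grk5, a kinase that desensitises such receptors, was lower by -0.57 ± 0.084 in PBS and -0.67 ± 0.084 with Ang II. Prkca, a protein kinase C isoform, was lower in PBS by -0.32 ± 0.081, lost without siNTC PBS replicate 1 or 2 or siGiver PBS replicate 2 (-0.36 to -0.21). Arrb2, which encodes beta-arrestin 2, was lower with Ang II by -0.42 ± 0.14, lost in 7 of 8 fits without 1 array, all but that without siGiver Ang II replicate 2 (-0.48 to -0.21, and -0.64 in that fit). Arrb2 lay near the filter, at 5.25 and 5.36 in siNTC Ang II and 4.66 and 5.10 in siGiver Ang II arrays. Rock2, a kinase of contraction, was lower in PBS by -0.57 ± 0.097 at its brightest probe set, where 1 of its other probe sets stood at 0.12 and a pair at -0.30 and -0.21, and where the mean of all 4 was -0.24. The siRNA difference of Rock2 with Ang II was -0.054 at that probe set and 0.22 for the mean of all 4, which passed (limma adjusted p = 0.0111). The other 3 rose with Ang II in siGiver cells (0.36 to 0.38).

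**Figure D4:**
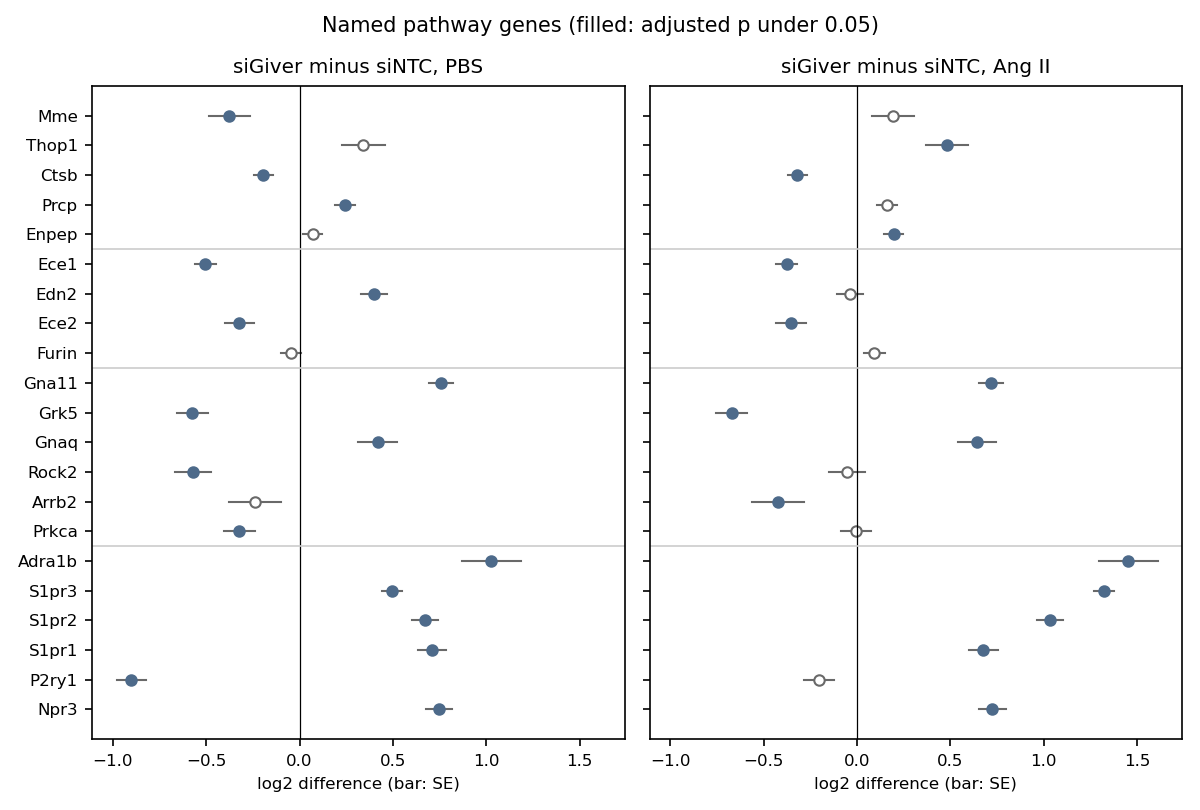
Log2 difference between siGiver and siNTC cells (x axis, bars for SE) in PBS and with Ang II for the named genes (y axis) of 4 lists, separated by lines: renin-angiotensin genes, endothelin genes, signalling genes and other vasoactive receptors. Filled points have a limma adjusted p under 0.05; Ece1, Ece2 and Grk5 are filled on the negative side and Gna11 and Gnaq on the positive side in both panels.

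For each member called at least once, the 3 genes with the most similar pattern were taken by Pearson's r over the 8 arrays. The arrays fall into 4 groups and share their normalization, so r mostly reflects 4 group means and is given as a description. Edn1 was closest to Ahctf1 (0.993), Cpsf6 (0.992) and Cd36 (0.990), and Agtr1a to Eif3f (0.988), Psd3 (0.983) and Synpo (0.982). Agtrap was closest to Prkd2 (0.996), Prdx3 (0.994) and Faxdc2 (0.991), and Agtr2 to Snrnp27 (0.987), Apex1 (0.970) and Cgrrf1 (0.968). Eif3f had the order of Agtr1a with levels only between 12.56 and 12.71 log2, so a high r did not go with a change of like size.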

How the data were processed

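Total RNA of 8 samples was measured on Affymetrix arrays. The authors deposited 1 log2 value for every probe set of each array. RMA and Partek are the tools named in the submitters' processing notes, without versions. Background correction, quantile normalization and the summary of probes are steps of RMA, and they can shrink small differences. The number of arrays limits the precision.

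Of 31042 non-control probe sets, 21729 with a mean at or above the 30th percentile were fitted with limma 3.58.1 in R 4.3.3, with 1 mean per group over all 8 arrays (4 residual and 3.40 prior degrees of freedom), and 5 comparisons were tested with Benjamini-Hochberg adjustment over all of them. The 20832 probe sets with 1 symbol were named through the array's annotation, and 20764 matched a rat gene table by identifier. List genes were represented by their brightest probe set, and up to 6 per list with the largest call are named.

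The members and lists were chosen with earlier results of these data known. Alternatives were no filter, a 50th percentile filter, the brightest or mean probe set per gene, cyclic loess, array medians subtracted, trended and robust moderation, only the 4 arrays compared, the replicate number as a block, and each array left out. The fitting was tested on simulated data. Promoter windows are RefSeq's for GRCr8, and all 6 member symbols matched there.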

Additional observations from a re-analysis of the deposited data

Results flagged for a closer look

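The Ang II effect differed between the siRNA arms, by the interaction in limma, for 3 of the genes named, each at its brightest probe set. Over all tested probe sets 3.36% passed there. List genes were named for their largest call in any comparison, the interaction included, so this count comes from genes picked on the same results. Edn1 stood at 0.62 ± 0.084 log2 (adjusted p = 0.0127), with Ang II effects of -0.23 in siNTC cells and 0.39 in siGiver cells. S1pr3, a sphingosine 1-phosphate receptor gene from the list of other vasoactive receptors, stood at 0.82 ± 0.075 (adjusted p = 0.00259), from -0.29 to 0.54. P2ry1, an ADP receptor gene, stood at 0.70 ± 0.11 (adjusted p = 0.0210), from -0.15 to 0.55, and its interaction call was lost in 6 of 8 fits without 1 array (0.61 to 0.75), all but those without siGiver PBS replicate 1 or siGiver Ang II replicate 1. Rock2 stood at 0.52 there (adjusted p = 0.0971) and passed at 2 of its other 3 probe sets, at 0.56 (0.0100) and 0.42 (0.0322), and in 4 alternatives. Groups of 2 arrays are too small to single out 1 array.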

How the results depend on the processing

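The precision is limited by 2 arrays per group. Of 632 member values recomputed under the alternatives, 590 stayed on the same side of the threshold, 37 lost a call and 5 gained one. Of all 632, 10 changed sign, and 0 of these passed before or after. Counts below are of all probe sets called unless members are named. Without a filter they were 423 for Ang II in siNTC cells, 1732 for Ang II in siGiver cells and 339 for the interaction, and 3 members passed for the siRNA in PBS. With the 50th percentile filter, which leaves out Agtr2, they were 1529 for Ang II in siNTC cells and 1269 for the interaction. With the brightest probe set of each symbol, which tests fewer features, they were 3986 for the siRNA in PBS and 5037 with Ang II. Of the 5 members tested there, 1, 3 and 2 passed for Ang II in siNTC cells, the siRNA in PBS and the interaction. With the mean of a symbol's probe sets the counts for the siRNA were 3754 in PBS and 4880 with Ang II. Of the 4 members tested there, 1, 2, 3 and 3 passed for Ang II in siNTC and siGiver cells and the siRNA in PBS and with Ang II. The Rock2 siRNA difference with Ang II turned from -0.054 to 0.22. Trended, robust moderation gave 2260 and 4352 for Ang II in siNTC and siGiver cells and 1901 for the interaction. Fitting only the 4 arrays compared gave 444 and 1456 for Ang II, with 1 member in siNTC cells and 3 for the siRNA in PBS. The cause of the other shifts was not tested.

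Same-numbered arrays did not deviate together (r between -0.14 and 0.098 over 6 pairs of groups). With 2 arrays per group this cannot tell if they shared a culture or a batch, which the labels do not give. With the replicate number as a block, the interaction count was 451, and 2, 3, 4, 6 and 1 members passed in the 5 comparisons, with the calls of Agtr2 for Ang II in siGiver cells (adjusted p = 0.0511) and of Agtrap for the siRNA in PBS (0.0515) lost. Leaving out 1 array gave 138 to 727 calls (1 to 2 members) for Ang II in siNTC cells, 1038 to 2382 (2 to 3) in siGiver cells, 3753 to 5849 (2 to 5) for the siRNA in PBS, 5423 to 7545 (6 in each) with Ang II, and 207 to 520 (0 to 1) for the interaction. A group left with 1 array is assumed to vary like the others.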

Other observations

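Other receptors that act on vascular tone moved in these cells too. Of 42 such genes 32 were tested, and in limma 2 rose and 1 fell with Ang II in siNTC cells (9 at an unadjusted p under 0.05), against 3.92% of all probe sets called. In siGiver cells 8 rose and 3 fell, against 12.7% of all. S1pr1, a receptor for the lipid sphingosine 1-phosphate, read 7.70 and 7.60 log2 in siNTC PBS against 8.77 and 8.57 in siNTC Ang II arrays, and 8.35 and 8.37 in siGiver PBS against 9.38 and 9.31 in siGiver Ang II arrays. It rose by 1.02 ± 0.076 and 0.99 ± 0.076, or by 0.46 and 0.40 for the mean of its probe sets. Avpr1a, the vasopressin receptor of smooth muscle, was named after its values were seen and rose by 0.59 and 0.66. S1pr3 fell in siNTC cells by 0.29 ± 0.053 on the log2 scale, a call lost without any 1 of the 6 arrays other than siGiver Ang II (-0.32 to -0.25), and rose in siGiver cells by 0.54 ± 0.053.

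Between the siRNAs, 7 were higher and 4 lower in siGiver cells in PBS, and 8 higher and 5 lower with Ang II, against 27.8% and 35.7% of all probe sets called. All 3 sphingosine 1-phosphate receptors in the list were among the higher, S1pr1 by 0.71 and 0.68 (0.35 and 0.29 for the mean of its probe sets), S1pr2 by 0.67 and 1.03, and S1pr3 by 0.50 and 1.32. Adra1b, an alpha-1 adrenergic receptor that couples to Gq, was higher by 1.03 ± 0.16 and 1.45 ± 0.16, and Npr3, the natriuretic peptide clearance receptor, by 0.75 and 0.73. P2ry1 was lower in PBS by -0.90 ± 0.078 and stood at -0.20 ± 0.078 with Ang II. S1pr2 rose with Ang II in siGiver cells by 0.28 ± 0.069, a call lost in all 8 fits without 1 array (0.22 to 0.34). The dimmer S1pr2 probe set rose by 0.52 there (limma adjusted p = 0.0164). Its siGiver differences were 0.86 in PBS and 1.27 with Ang II.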
